A study of Mus musculus with 22 samples.

Results

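Cycling cells of the control mouse esophageal epithelium are described here. They were chosen by measured values: a control cell counted as cycling when the mitotic genes Top2a, Mki67, Cenpf, Ube2c, Cdk1, Ccna2, Ccnb1, Nusap1 and Birc5 together held at least 3 unique molecular identifiers (UMIs, tags that mark captured RNA molecules) and at least 0.3% of the UMIs of that cell. The rule kept 234 of 1500 control cells, among 4500 deposited cells in all. Within each mouse they were compared with 531 other control cells whose UMIs on the basal keratins Krt5, Krt14 and Krt15 were at or above those on the differentiation markers Krt4, Krt13 and Krtdap, called other basal keratin cells here. The remaining 735 control cells met neither rule. Below, cells without basal keratins are those whose UMIs on the basal keratins lay below those on the differentiation markers. They need not lack these keratins, and Krt5 had a UMI in 53.9% of the 735 cells.

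The cells came from 6 untreated C57BL6 mice, of which mice 1, 2 and 6 were young (3 to 4 months) and mice 3, 4 and 5 were old (18 to 20 months). Epithelium was peeled from muscle, dissociated with dispase and trypsin and profiled by inDrop, a droplet method that gives the RNA of each cell a shared barcode, with 2 libraries per mouse. The study also held 4 mice with eosinophilic esophagitis (EoE), induced with MC903 and ovalbumin, of 6 to 8 weeks or 19 to 20 months, and 3 mice of 8 to 10 months with esophageal squamous cell carcinoma (ESCC), induced with 4NQO. These enter a single comparison at the end. The labels call all cells squamous.

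The epithelium renews from its basal layer. Basal keratinocytes divide next to the basement membrane, and their daughters move outward, switch keratins and are shed. A dividing cell copies its DNA in S phase, prepares to divide in G2 and separates its chromosomes in mitosis (M). Many mitotic genes are repressed in resting and G1 cells and switched on together in G2, through a promoter element called the CHR that DREAM and MuvB complexes bind, often beside CCAAT boxes bound by NF-Y. D-type cyclins act earlier, when a G1 cell commits to another round.

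Promoters of 6 genes are shown first, as examples. The cell rule did not read these letters, but it chose cells on genes of the mitotic program. Each window runs from 150 bases to 1 base before the RefSeq start, 5′ to 3′ on the strand of the gene, on GRCm38.p6. Capitals mark CHR letters (TTTGAA, or TTCAAA on the other strand) and CCAAT boxes (CCAAT, or ATTGG on the other strand). Cdk1, Top2a and Ube2c are rule genes, Cdc20 and Cks1b are mitotic genes that were higher in cycling cells, and Btg2 is an antiproliferative gene that was lower.
Cdk1, chr10:69352913-69353062, minus strand: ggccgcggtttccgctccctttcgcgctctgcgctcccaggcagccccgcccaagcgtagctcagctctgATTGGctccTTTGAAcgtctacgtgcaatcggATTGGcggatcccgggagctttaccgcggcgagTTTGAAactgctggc
Top2a, chr11:99024190-99024339, minus strand: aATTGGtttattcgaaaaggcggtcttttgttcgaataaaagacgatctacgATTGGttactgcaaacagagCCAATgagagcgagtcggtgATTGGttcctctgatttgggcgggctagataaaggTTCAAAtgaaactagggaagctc
Ube2c, chr2:164769779-164769928, plus strand: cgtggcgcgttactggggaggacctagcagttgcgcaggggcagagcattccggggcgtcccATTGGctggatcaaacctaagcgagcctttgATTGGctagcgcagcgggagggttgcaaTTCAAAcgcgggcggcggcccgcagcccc
Cdc20, chr4:118437344-118437493, minus strand: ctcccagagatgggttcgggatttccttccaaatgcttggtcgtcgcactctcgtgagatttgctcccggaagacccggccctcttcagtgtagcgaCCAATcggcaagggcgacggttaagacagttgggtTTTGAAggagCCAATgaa
Cks1b, chr3:89418292-89418441, minus strand: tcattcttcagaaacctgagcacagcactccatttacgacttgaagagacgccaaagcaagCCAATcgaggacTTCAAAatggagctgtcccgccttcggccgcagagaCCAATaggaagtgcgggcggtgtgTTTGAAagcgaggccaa
Btg2, chr1:134079156-134079305, minus strand: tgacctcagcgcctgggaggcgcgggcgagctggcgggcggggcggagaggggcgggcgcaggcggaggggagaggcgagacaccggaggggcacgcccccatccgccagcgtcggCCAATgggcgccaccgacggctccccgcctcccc

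Cdk1, the kinase that drives entry into mitosis, held CHR letters that began 71 and 15 bases before its start. Cdc20, an activator of the anaphase-promoting complex, held them 18 bases before, and Cks1b, a CDK-binding subunit, 77 and 17 bases before. Btg2 held no CHR letters in this window and a CCAAT box 34 bases before its start. For counts, windows of 300 bases (250 before to 50 after the start) were searched on both strands. Of the 9 rule genes 8 had a window, and 5 of these held both CHR and CCAAT letters. Not all genes followed the 6 shown. The rule genes Birc5 and Nusap1 and the higher genes Nuf2, Mad2l1 and Tk1 held neither element. The lower genes Col17a1 and Ncl held CHR letters.

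Among 21 tested genes of the Seurat G2/M list with a window, rule genes left out, 18 (85.7%) held CHR letters and 17 (81%) a CCAAT box. Of all 27025 genes with a RefSeq window, 20.2% held CHR letters and 41.1% a CCAAT box. A gene with several windows counted if any of them held the letters. Of 106 genes that were higher in cycling cells and had a window, 47 (44.3%) held CHR letters, against 9 of 93 lower genes (9.68%) and 118 of 868 genes that were not called (13.6%). Both elements stood together in 35 of the higher genes (33%), in 3 of the lower genes (3.23%) and in 7.97% of all genes with a window. These shares describe letters, not bound sites. The G2/M list and many higher genes belong to the program on which the cells were chosen. Their shares are therefore a description and not independent evidence.

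**Figure D1:**
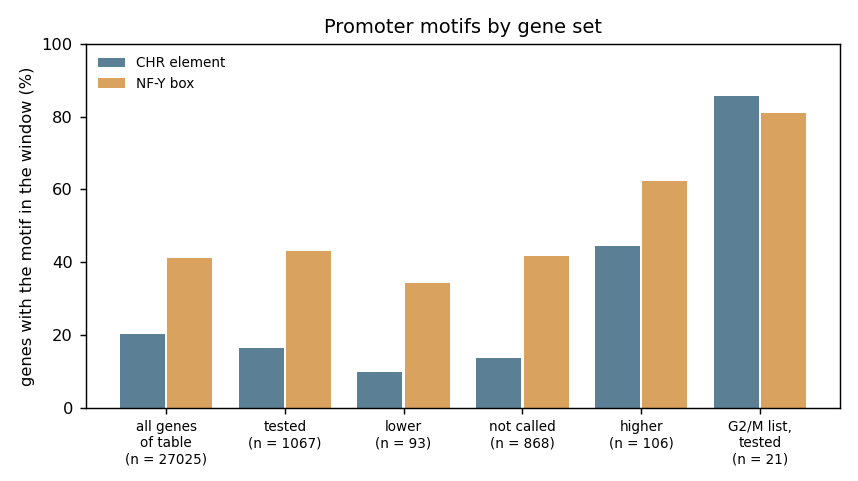
Percent of genes whose promoter window (250 bases before to 50 after the start) holds CHR letters (blue) or a CCAAT box (orange, the NF-Y box of the legend), for all genes of the RefSeq table, all tested genes, genes lower, not called and higher in cycling cells, and tested genes of the G2/M list. CHR letters stand in 85.7% of the 21 G2/M genes and in 9.68% of the 93 lower genes.

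One feature of the libraries precedes the values. The 2 libraries of a mouse shared 122 cell barcodes, 4 to 36 per mouse, while libraries of different mice shared 2. Profiles with the same barcode had a median correlation of 0.746 on the log scale, against 0.369 for other pairs of the same mouse, and the paired counts differed by less than the sampling noise (median dispersion of 0.607, where 1 is counting noise). Such pairs may be 1 cell deposited as 2 columns. With 1 column per barcode and mouse, 219 of 1378 control cells were cycling, and the call was the same in both readings for 119 of 122 barcodes. Results below use all columns, summed per mouse, with the values for 1 column per barcode beside the main ones. UMIs per control mouse ranged from 112412 to 427752, of which cycling cells held 17910 to 80737.

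Single cycling cells showed part of the 9 rule genes each. Top2a, the topoisomerase that untangles sister chromatids, had a UMI in 77.4% of cycling cells (95% exact interval 71.4 to 82.5), in 5.46% of other basal keratin cells and in 3.4% of other cells without basal keratins, at median depths of 1069.5, 915 and 1078 UMIs per cell. Cenpf, a kinetochore protein, had a UMI in 79.9% of cycling cells, and Ube2c, the ubiquitin-conjugating enzyme of the anaphase-promoting complex, in 77.8%. The proliferation marker Mki67 had one in 57.3%, against 6.97% of other basal keratin cells. Ccnb1 (33.8%) and Birc5 (32.9%) were the sparsest. At least 4 of the 9 genes had a UMI in 182 cycling cells (77.8%), all 9 in 3 cells and a single gene in 2 cells. These values chose the cells and are a description without a test.

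In UMIs per 10000, Top2a stood at 16.8, 21.3, 16.8, 18.5, 25.4 and 16.9 in the cycling cells of mice 1 to 6. Mki67 stood at 7.18, 7.59, 8.93, 6.85, 8.87 and 11.9 in the same order. Ube2c ranged from 6.14 to 19.7 and Nusap1, a spindle protein, from 2.79 to 8.73, both lowest in mouse 3, which had 10 cycling cells. Cdk1 ranged from 4.3 to 8.87 and the cyclin Ccna2 from 4.18 to 9.34.

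The cutoff fell within a continuous range. There were 21 cycling cells with exactly 3 rule gene UMIs, while 50 cells with 2 UMIs and 20 cells with 3 or more UMIs that made up less than 0.3% lay just outside. UMIs of the G2/M list, rule genes left out, made up 1.02% of all UMIs in cells with exactly 3 rule gene UMIs and 1.87% in the 169 cells with 6 or more. They made up 0.589% in cells with 2 rule gene UMIs outside the class, 0.359% in the 174 cells with 1 and 0.175% in the 1022 cells with none. S list UMIs ran the other way inside the class, at 0.555% in cells with exactly 3 rule gene UMIs and 0.329% in those with 6 or more.

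**Figure D2:**
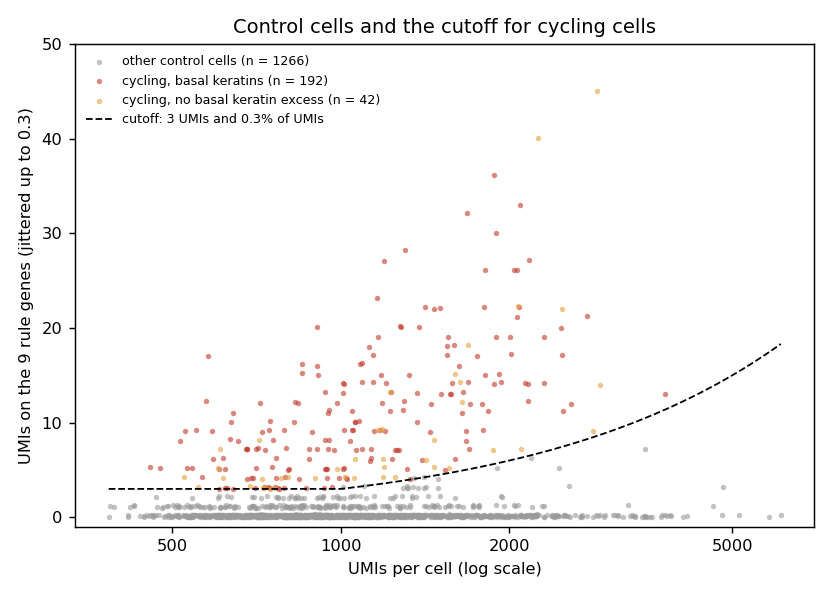
Each point is a control cell, with its UMI count (log scale) against its UMIs on the 9 rule genes (linear scale, jittered upward by up to 0.3). The dashed line is the cutoff of 3 UMIs and 0.3% of UMIs. Above it lie 192 cells with basal keratins at or above the differentiation markers (red) and 42 with basal keratins below them (orange). Of the other cells (grey), 1022 hold no UMI on these genes.

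Cycling cells made up 18% of the cells of mouse 1 (64 of 355, 95% exact interval 14.2 to 22.4), 12.5% of mouse 2 (25 of 200, 8.26 to 17.9) and 14.1% of mouse 3 (10 of 71, 6.97 to 24.4). They made up 14.2% of mouse 4 (58 of 409, 10.9 to 17.9), 16.5% of mouse 5 (37 of 224, 11.9 to 22) and 16.6% of mouse 6 (40 of 241, 12.1 to 21.9). The 6 shares averaged 15.3% ± 2.06 (SD, n = 6), and their intervals, which cover counting error only, overlapped. The 2 libraries of mouse 2 differed most, at 16.2% and 8.42%.

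Age was compared through these shares. Old mice had 14.9% ± 1.38 cycling cells (SD, n = 3) and young mice 15.7% ± 2.87 (SD, n = 3). The difference of -0.781 percentage points was within the spread between mice (two-sided exact permutation test, p = 0.8, where 3 against 3 mice cannot go below 0.1). With 1 column per barcode the difference was -0.0378 points.

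Most cycling cells counted as basal keratin cells. In 192 of 234 cycling cells the basal keratins were at or above the differentiation markers, with shares of 81.25%, 100%, 80%, 67.2%, 86.5% and 90% in mice 1 to 6. Among all other control cells the shares were 37.5%, 61.7%, 62.3%, 35%, 38% and 40.8%. Cycling cells were higher in 6 of 6 mice, by 38.3 points on average (84.2% ± 11 against 45.9% ± 12.6, SD, n = 6, two-sided exact sign-flip permutation test, p = 0.03125, the smallest that 6 mice can give). The difference was 39.1 points with 1 column per barcode, 40.6 points without cells called doublets and 43.1 points with all cells thinned to 500 UMIs. Cycling cells made up 17.4% to 32.3% of the basal keratin cells of a mouse and 0% to 8% of its cells without basal keratins. In mouse 2, 0 of 25 cycling cells had basal keratins below the differentiation markers, which allows a share of up to 12%.

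**Figure D3:**
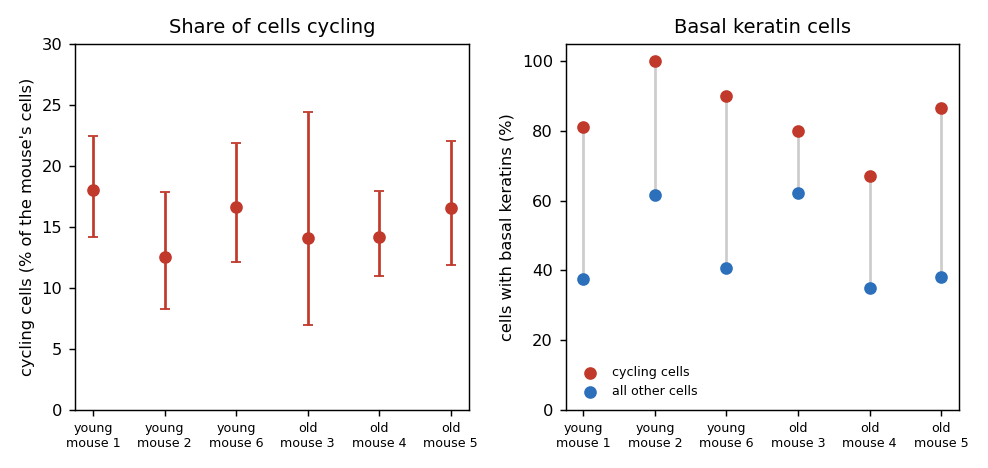
Left, percent of the cells of each control mouse that were cycling, with 95% exact intervals, from 12.5% in mouse 2 to 18% in mouse 1. Right, percent of cells with basal keratins among cycling cells (red) and all other cells (blue) of the same mouse, where cycling cells lie above in each of the 6 mice.

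The 42 cycling cells whose basal keratins lay below the differentiation markers stood apart in further values. Scrublet called 6 of them (14.3%) doublets, against 1 of the 192 with basal keratins (0.521%) and 6 of the 531 other basal keratin cells (1.13%), and the part of doublets in this group was not tested. Their median of rule gene UMIs was 5.5, against 10 in the cycling cells with basal keratins. Genes of the differentiation list, comparison keratins left out, held 293 ± 68.2 UMIs per 10000 in them (SD, n = 5 mice), against 153 ± 17.2 in cycling cells with basal keratins (n = 6). The same list held 174 ± 20.5 in other basal keratin cells and 584 ± 97.3 in other cells without basal keratins. Since the split was drawn on keratins, these levels are a description.

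Cycling cells had the markers of the epithelium. Krt5 had a UMI in 99.6% of them and stood at 81.8 ± 9.2 UMIs per 10000 (SD, n = 6), against 88.8 ± 8.58 in other basal keratin cells. Krt14 stood at 41.4 ± 11 against 49.6 ± 10.04, and Krt15 at 79.4 ± 15.5 against 86 ± 4.49. Of the differentiation markers, Krt4 stood at 49.1 ± 25.7 against 28.9 ± 11.8, and at 449 ± 98.3 in other cells without basal keratins. These keratins set the comparison group and were not tested.

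Markers of other cell types were at or near 0. Of 10 immune markers, 9 had no UMI in the cycling cells, Ptprc, Cd74 and Cd3e among them, and Lyz2 had 1. Endothelial markers held 1 UMI and muscle markers 2. No cycling cell was called non-epithelial, where 0 of 234 cells allows a share of up to 1.28%. Of 6 fibroblast markers, Col1a1, Col1a2, Lum and Pdgfra had no UMI in cycling cells, Col3a1 had 1 and Dcn 54, while all 6 were seen in other basal keratin cells, with 327 UMIs in all. Their sum ranged from 0.248 to 6.7 UMIs per 10000 in cycling cells and from 2.49 to 11.3 in other basal keratin cells. Without the 7 control cells called non-epithelial, none of them cycling, 123 genes were higher and 126 lower in cycling cells, and 247 of the 253 calls given below were kept.

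Position in the cell cycle was read from lists without the rule genes. G2/M list UMIs exceeded S list UMIs in 221 of 234 cycling cells (94.4%), from 84% of cells in mouse 2 to 100% in mouse 3. The rule genes act mainly in G2 and M, so the rule itself favors such cells. G2/M list genes made up 1.77% ± 0.156 of the UMIs of cycling cells (SD, n = 6) and 0.285% ± 0.0595 in other basal keratin cells. S list genes made up 0.359% ± 0.0569 and 0.175% ± 0.0373, with the higher value in the cycling cells of each mouse. In other cells without basal keratins the S list made up 0.0551% ± 0.00802.

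Genes were then tested on UMIs summed per mouse and class, with edgeR's quasi-likelihood test, the mouse as a block and Benjamini-Hochberg adjustment. The 9 rule genes and 6 comparison keratins were left out of all counts. Of 1321 genes tested, 125 were higher in cycling cells (9.46%) and 128 were lower (9.69%) at an adjusted p below 0.05. The higher genes had a median log2 difference of 1.01 and the lower genes of -0.63, and 40 genes passed a log2 difference of 2. With 1 column per barcode 118 were higher and 120 lower of 1187. Since the cells were chosen on mitotic genes read in the same cells, other genes of that program were bound to be higher, and their tests are not independent evidence. The filter on low counts could also be passed through 1 class alone. Mitotic genes near 0 in other basal keratin cells could therefore enter only through the cycling cells, where they are high. For mitotic lists, the counts of tested members called or without overlap are a description, and no adjusted p is given for their single genes. Levels below are CPM, UMI counts scaled to a common library total by the TMM method, and differences are log2 values with a standard error (SE). The SE and the p-values come from the fit, whose spread was shared by all genes. They do not measure the spread of the single gene between mice, which the values per mouse show.

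Kinetochore and checkpoint genes, which attach chromosomes to the spindle and delay anaphase until all are attached, were higher together. Of 32 listed genes 6 were tested, and all 6 were higher, with a median log2 difference of 3.05 against -0.04 over all tested genes. The mice of the 2 classes did not overlap for any of the 6, as for 6.43% of all tested genes. Cenpa, the histone variant that marks centromeres, stood at 886, 1061, 853, 933, 884 and 775 CPM in the cycling cells of mice 1 to 6 and at 121, 80.8, 148, 103, 52.1 and 196 in their other basal keratin cells. Each cycling value lay above all the others, with a log2 difference of 2.96 ± 0.21 (SE of the fit to 6 mice). The kinetochore motor Cenpe differed by 3.14, the NDC80 complex members Spc25 and Nuf2 by 3.77 and 3.42, and the checkpoint protein Mad2l1 by 2.92.

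Spindle, midzone and cytokinesis genes were the largest mitotic group, with 21 of 22 tested genes higher (median log2 difference 3.23). Plk1, a kinase of mitotic entry and exit, stood at 364, 329, 569, 213, 379 and 329 CPM in cycling cells and at 9.32, 30.3, 21.1, 0, 0 and 24.5 in other basal keratin cells. The classes did not overlap, and the log2 difference was 4.50 ± 0.42. Aspm, a spindle pole protein, differed by 3.96, Anln, which organizes the cleavage furrow, by 3.83, Aurkb, the kinase of the chromosomal passenger complex, by 3.81, and the kinesin Kif20b by 3.73. The midzone protein Prc1 (3.56) and the spindle protein Ckap2 (3.64) followed. Tubb5, a beta tubulin expressed in many cells, had a smaller difference of 1.83 from a higher base, at 1732 ± 240.4 against 494 ± 102 CPM (SD, n = 6). Numa1 was the tested member that was not called (0.33).

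Chromosome structure genes were higher in part. Smc4 and Smc2, the core of condensin, which compacts mitotic chromosomes, differed by log2 values of 2.48 and 3.48. Smc4 stood at 1773, 2452, 1707, 1898, 2190 and 2480 CPM in cycling cells and at 252, 495, 359, 423, 352 and 380.2 in the others, without overlap (SE of the log2 difference 0.13). The cohesin subunits Rad21 (1.67) and Smc1a (0.71) also passed the test, while the subunit Smc3 (0.21), the cohesin regulators Pds5a (0.25) and Wapl (0.15) and the topoisomerase Top2b (-0.14) did not. In all 4 of 8 tested genes were higher and none was lower.

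Genes of the anaphase-promoting complex and of the nuclear envelope were higher in part. Cdc20 stood at 571, 622, 455, 425, 716 and 698 CPM in cycling cells and at 74.5, 121, 42.3, 10.3, 39.1 and 123 in the others, without overlap, a log2 difference of 3.06 ± 0.27. The complex subunit Anapc11 differed by 1.13, while the subunit Anapc13 (0.02) and Skp1a (-0.10), of the SCF ligase, were not called. Of 7 tested nuclear envelope and lamina genes 5 were higher. Rangap1, a GTPase activator of nuclear transport, differed by 2.04, the lamin Lmnb1 by 1.56 and the lamina protein Tmpo by 1.41. Lmna (0.35) and Banf1 (0.54) differed less.

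Genes of DNA synthesis were thinly measured. Of 43 replication origin and fork genes only Rfc1 passed the filter on low counts, with a log2 difference of -0.17 (edgeR adjusted p = 0.822), and none of 61 replication-dependent histone genes did. Summed over the list, replication genes held 28 ± 6.32 UMIs per 10000 in cycling cells and 15.4 ± 5.04 in other basal keratin cells (SD, n = 6). By mouse the sums were 28, 28.5, 38.5, 26.8, 27.5 and 18.7 against 16.5, 23.7, 10.3, 10.6, 13.8 and 17.7, so that the classes of mouse 6 were closest. Pcna, the sliding clamp of replication, had 32 UMIs in cycling cells and 57 in the others, or 1.12 and 1.12 per 10000, and was not tested.

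Nucleotide synthesis was better covered. Thymidine kinase Tk1 (2.00), the ribonucleotide reductase subunit Rrm1 (1.66) and the dUTPase Dut (0.71) were higher on the log2 scale and the purine enzyme Paics was lower (-0.54), of 4 tested genes. Chromatin genes outside mitotic structures were higher for 6 of 11 tested genes. Hmgb2, a DNA-bending protein, differed by 2.31, the histone methyltransferase Ezh2 by 1.62 and the histone chaperone Anp32e by 1.53. Of the Seurat lists, all 24 tested G2/M genes were higher without overlap between the classes, and of 3 tested S genes Rrm1 and the deubiquitinase Usp1 (1.59) were higher while Cdca7 (0.02) was not called.

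**Figure D4:**
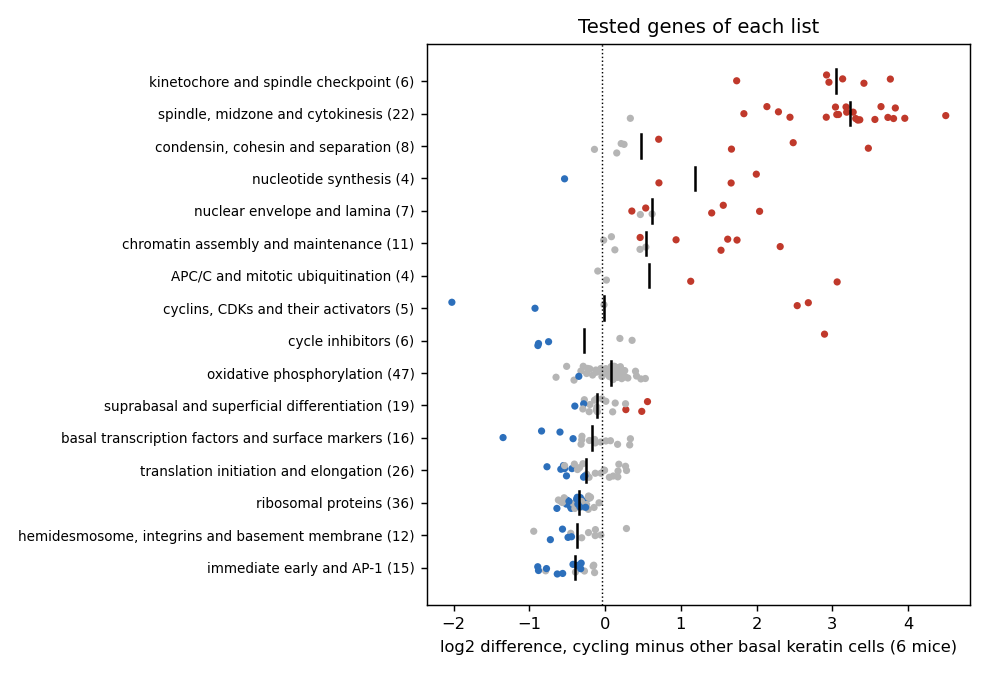
Log2 difference between cycling and other basal keratin cells for each tested gene of 16 lists, with the number tested in brackets, red for higher and blue for lower at an adjusted p below 0.05 and grey for the rest. Black bars are list medians and the dotted line is the median of all tested genes, and mitotic lists reach 4.50 (Plk1) while ribosomal proteins lie at or below -0.08 (Rplp0).

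Cyclins and their partners differed in both directions. Cks1b and the mitotic cyclin Ccnb2 were higher, with log2 differences of 2.68 and 2.54. Ccnd2, a D-type cyclin of G1, stood at 243, 366, 284, 327, 253 and 213 CPM in the cycling cells of mice 1 to 6 and at 811, 1040, 1500, 1453, 1159 and 1042 in their other basal keratin cells. The highest cycling value lay below the lowest of the others, and the log2 difference was -2.02 ± 0.17 (SE of the fit to 6 mice, edgeR adjusted p = 1.50e-30). In counts, Ccnd2 had 78 UMIs in 28.2% of cycling cells, 576 UMIs in 55.6% of other basal keratin cells and 159 UMIs in 14.8% of other cells without basal keratins. With the cycling cells limited to those with basal keratins, its log2 difference was -1.86.

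The related cyclin Ccnd1 was lower in 5 of 6 mice, by 0.93 on the log2 scale (edgeR adjusted p = 0.0076), from 39 and 133 UMIs. This call was lost with DESeq2 (adjusted p = 0.152). Cdk4, their kinase partner, had a log2 difference of -0.02 from 70 and 131 UMIs and was not called. The inhibitor Cdkn1a was not called either (0.20 ± 0.30, edgeR adjusted p = 0.742), with 52 and 80 UMIs in these classes and 1164 in other cells without basal keratins. The inhibitor Cdkn1b did not pass the filter, with 45 and 69 UMIs.

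The remaining inhibitors and antiproliferative genes split. Cdkn2d, an inhibitor of CDK4 and CDK6, was higher by a log2 difference of 2.90, at 277 ± 52.5 against 36 ± 22.2 CPM (SD, n = 6). At so low a level in the others, it could pass the filter on low counts only through the cycling cells. With cycling cells limited to those with basal keratins, 4 genes of this list were tested, of which 0 were higher and 3 lower. Btg2 stood at 1117, 659, 967, 1211, 1285 and 1066 CPM in cycling cells and at 2152, 1070, 2007, 2628, 2540 and 1325 in the others, lower in each mouse though the ranges overlapped (log2 difference -0.88 ± 0.11, edgeR adjusted p = 4.51e-14). Its relative Btg1 fell by 0.75 on the log2 scale. Gas5, a noncoding RNA that accumulates in growth-arrested cells and hosts small nucleolar RNAs, fell by 0.89 and stood at 1248 ± 178 against 2357 ± 434 CPM.

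Immediate early genes, which cells switch on soon after a stimulus or tissue dissociation, were lower or not called. All 15 tested genes had a log2 difference below 0 (median -0.39), and 9 passed the test. Junb, an AP-1 subunit, stood at 1044, 732, 1309, 818, 1348 and 1163 CPM in cycling cells and at 1696, 1282, 2345, 2236, 2462 and 1803 in the others (-0.89 ± 0.11, edgeR adjusted p = 2.56e-14). It was lower in each mouse. The transcription factor Egr1 fell by 0.56, Jun by 0.37 and the growth factor-induced Myc by 0.77, while Fos (-0.16) and Atf3 (-0.27) were not called. Without the mouse as a block 2 of the 15 passed, and with DESeq2 5 did.

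Of the ribosome and translation genes, some were lower by small amounts and none was higher. All 36 tested ribosomal protein genes of 84 listed had a log2 difference below 0, from -0.64 to -0.08 with a median of -0.35, and 18 passed the test. Summed over the list, they held 728 ± 95.1 UMIs per 10000 in cycling cells, 899.5 ± 119 in other basal keratin cells and 575 ± 74 in other cells without basal keratins (SD, n = 6). The elongation factor Eef1a1 stood at 5500, 6404, 6088, 5023, 6275 and 5251 CPM in cycling cells and at 7192, 8713, 9021, 7234, 8846 and 8328 in the others, a log2 difference of -0.51 ± 0.06 (edgeR adjusted p = 9.52e-16) without overlap. Of 26 tested translation factors 8 were lower and none higher, Eef2 (-0.55) and Eif3e (-0.77) among them.

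Calls on single ribosomal genes leaned on the pairing of classes within a mouse. Without the block 0 of the 36 passed with edgeR, and with DESeq2 and the block 12 did. The nucleolar genes Ncl (-0.35) and Npm1 (-0.36) were lower, as were 3 of 6 tested genes of that list, and 0 passed when cycling cells were limited to those with basal keratins. Of 47 tested genes of oxidative phosphorylation 1 was called, Uqcrh (-0.35), and the list median was 0.08. Of 7 glycolysis genes 1 was called, Ldha (-0.52). Several of these transcripts have near-identical copies in the genome, so their counts are uncertain.

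Genes that anchor basal cells to the basement membrane were lower or not called. Of 12 tested genes 4 were lower and none was higher, with a median log2 difference of -0.38. Dst, which encodes the hemidesmosomal plakin BPAG1, stood at 996, 1061, 1764, 1423, 927 and 1318 CPM in cycling cells and at 1677, 1525, 2113, 2370, 1915 and 2281 in the others (-0.72 ± 0.11, edgeR adjusted p = 3.00e-10). It was lower in each mouse, and the ranges overlapped. The hemidesmosome collagen Col17a1 (-0.44), the integrin Itga6 (-0.49) and the plakin Plec (-0.56) were the other members called, and the integrins Itgb4 (-0.13) and Itgb1 (-0.06) were not. With cycling cells limited to those with basal keratins, 2 of 11 tested members were lower, and with DESeq2 1 of 12 was.

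Of 16 tested basal transcription factors and surface markers 4 were lower and none was higher. With cycling cells limited to those with basal keratins 2 of 16 were lower, as with DESeq2 and without the mouse as a block. The factors that set squamous identity were not called. Trp63 stood at 682 ± 285 CPM in cycling cells and 679 ± 187 in the others (SD over 6 mice). Its log2 difference was 0.01 ± 0.15 (SE of the fit). Sox2 stood at 589 ± 203 and 581 ± 214, with a log2 difference of 0.07 ± 0.16. Igfbp3, a binding protein of insulin-like growth factors, was lower (-1.35), as were the ligand Wnt4 (-0.60), the receptor Fgfr2 (-0.42) and Dlk2 (-0.84).

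Of 19 tested differentiation genes 3 were higher and 2 lower. S100a16 (0.48), Dmkn (0.56) and the sodium pump subunit Atp1b3 (0.27) were higher, and the desmosomal plakin Dsp (-0.40) and S100a14 (-0.28) were lower. When cycling cells were limited to those with basal keratins, 0 of 18 was higher, 5 were lower and Dmkn stood at -0.09. The comparison cells were chosen on keratins, and no other choice of them was tried for single genes.

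Among genes with the largest falls, Sparc, a matricellular protein, stood at 134, 0, 56.9, 49.1, 21.1 and 96.9 CPM in cycling cells and at 289, 363, 380.3, 175, 156 and 319 in the others. The classes did not overlap (-1.87 ± 0.33, edgeR adjusted p = 1.65e-07), with 21 and 140 UMIs behind them. Gtpbp4 (-1.34), a GTPase of ribosome assembly, Zfas1 (-1.24), a host of small nucleolar RNAs that overlaps an antisense neighbor, Klf9 (-1.23), a transcription factor induced by glucocorticoids, and Il1r2 (-1.20), the decoy receptor of interleukin 1, were lower in 6 of 6 mice. The glycoprotein Gpnmb (-1.15), the glutamine synthetase Glul (-1.05) and the receptor Procr (-0.98) were lower too. Dcn, the fibroblast marker with the most UMIs, fell by 1.09 on the log2 scale in the same comparison.

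**Figure D5:**
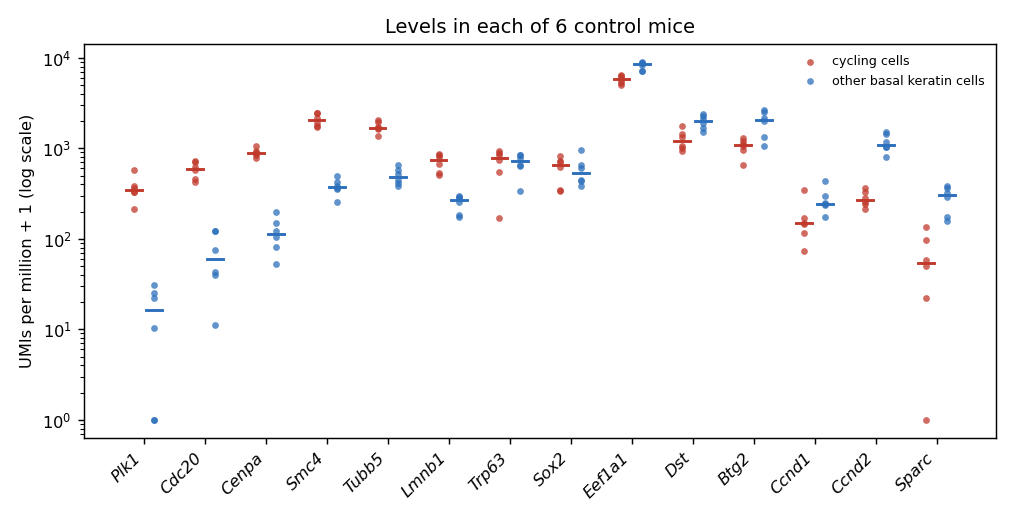
CPM plus 1 (log scale) of 14 genes in cycling cells (red) and other basal keratin cells (blue), 1 point per control mouse with bars at the medians. The mitotic genes Plk1 and Cdc20 separate fully, Trp63 and Sox2 overlap, and Ccnd2 lies at 213 to 366 in cycling cells and at 811 to 1500 in the others.

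The differences between classes were compared between ages. In edgeR's quasi-likelihood test, none of 1321 genes (0%) had a class difference that changed with age at an adjusted p below 0.05. At an unadjusted p below 0.05 there were 66 of the 1321, about the 1 in 20 that chance gives. Cycling cells of old and young mice were also compared directly. Of 954 genes, 2 were higher in old mice (0.21%), ND6 and Dcn, and 1 was lower (0.105%), H19. The imprinted noncoding RNA H19 stood at 3272, 2489 and 3057 CPM in young mice 1, 2 and 6 and at 748, 1382 and 1345 in old mice 3, 4 and 5, a log2 difference of -1.28 (edgeR adjusted p = 0.00104).

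The order was the same among other basal keratin cells, where H19 had medians of 2122 CPM in young and 769 in old mice. The mitochondrial gene ND6 stood at 6260 ± 2360 CPM in old and 3071 ± 210.2 in young mice in cycling cells (SD, n = 3 each, log2 difference 1.02), and its medians in other basal keratin cells were 5197 and 3728. Dcn, at 403 ± 203 and 110.4 ± 107 CPM (log2 difference 2.11), rested on 54 UMIs. DESeq2 called 0 genes higher and 1 lower in old mice, and edgeR without a filter on low counts called none of 10383. Of these, 323 had an unadjusted p below 0.05, fewer than the 1 in 20 that chance gives.

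The same rule was applied to the disease models, with each cell thinned to 500 UMIs because depth differed between conditions. Control mice then had 8.56% to 14% of cells past the rule and ESCC mice 13.5%, 8.19% and 5.6%, a difference of -2.02 points (two-sided exact permutation test, p = 0.321 adjusted over 2 comparisons, n = 3 and 6). At 300 UMIs per cell the ESCC difference was -3.39 points (exact permutation test, adjusted p = 0.119). The direction turned with depth, at 0.285 points with cells thinned to 1000 UMIs and 0.621 points without thinning. Without ESCC mouse 1 the difference was -4.22 points (exact permutation test, p = 0.0357, the smallest that 2 against 6 mice can give). The 4 EoE mice had 3.33%, 0%, 6.67% and 0%, from 30, 7, 15 and 22 cells that reached this depth, where 0 of 7 and 0 of 22 cells allow shares of up to 42.9% and 13.6%. Their difference from controls was -8.61 points (two-sided exact permutation test, adjusted p = 0.00952, n = 4 and 6, lower in 4 of 4 mice). It was -2.23 points at 300 UMIs per cell (exact permutation test, adjusted p = 0.267), -17.9 points at 1000 UMIs (adjusted p = 0.0238, 3 EoE mice) and -12.7 points without thinning (adjusted p = 0.00952). At 1000 UMIs the EoE side rested on 12, 1 and 10 cells of mice 10, 12 and 9, with 0% past the rule in each, and mouse 11 had no cell left. Except at 300 UMIs, the adjusted p-values for EoE are the smallest that the exact permutation tests can give with so few mice.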

How the data were processed

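The authors deposited whole UMI counts per gene and cell, made per the labels and the study's methods with UMI-tools 1.0.0, STAR 2.7.3 and featureCounts on GRCm38 and filtered in Seurat; whether featureCounts used strand is not given in the sources used here. The tables hold 17541 genes and 1500 cells per condition, and control libraries held 44142 to 216907 UMIs.

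Cells were classed as stated, with members and lists chosen with earlier results of these data known. Counts were summed per mouse and class, filtered with filterByExpr, scaled by TMM and tested with edgeR 4.0.16 (R 4.3.3), quasi-likelihood, with the mouse as a block and Benjamini-Hochberg adjustment. The 2 classes of a mouse come from the same animal, which is where the pairing comes from. The fitted spread was shared by all genes (infinite prior degrees of freedom). DESeq2 1.42.0 was an alternative. Doublets were called with Scrublet (scanpy 1.11.5) and kept. Shares were tested over mice with exact permutation tests. The named genes were the rule genes and keratins, the 10 largest changes per direction (mean log2 CPM of at least 7, same direction in 6 mice), the 3 smallest p per list and 9 fixed genes; other members of a list were named as examples after their values were seen. In simulated counts 100 genes were changed by a log2 of 1 and 100 by 2, of which 90 and 76 passed the filter on low counts. Of these edgeR recovered 85 and 76, and it called 7 unchanged genes. The simulated mice had no mean differences of their own, and their spread was taken from the fit. Promoter windows came from RefSeq (GRCm38.p6), with a window for 1067 of 1321 genes.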

Additional observations from a re-analysis of the deposited data

Results flagged for a closer look

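Values over the 6 control mice, and 1 set over the 4 EoE mice, were checked for a value far from the others. Of these 127 groups 9 had one, all over control mice, where chance gives about 1 in 20. The median UMI count per cycling cell was 1688 in mouse 3, against 943 to 1142 in the other mice. For log2 differences between cycling and other basal keratin cells, a single mouse stood apart for 8 genes. Mouse 6 had 3.577 for Cdkn2d (others 1.832 to 2.22) and -2.391 for Zfas1 (others -1.151 to -0.4294). Mouse 4 had 0.04517 for Fgfr2 (others -0.5907 to -0.4015) and -1.418 for Junb (others -0.8552 to -0.62). Mouse 3, with 10 cycling cells, had -2.787 for Klf9 (others -1.546 to -0.8076) and 0.7159 for Prc1 (others 2.846 to 3.656). Mouse 2 had -0.00233 for Krt5 (others -0.1845 to -0.143) and -0.3469 for Perp (others 0.082 to 0.2416).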

How the results depend on the processing

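Against 125 higher and 128 lower genes in the report, the fit without the mouse as a replicate block called 87 and 42, DESeq2 called 79 and 47, and edgeR on cells thinned to 500 UMIs called 31 and 17 of 258 genes tested. In the thinned cells 107 of the 253 calls could be tested, of which 45 were kept (29 higher and 16 lower) and 3 had the opposite sign. Higher genes made up 49.4% of calls with the block, 67.4% without it and 62.7% with DESeq2. Other scalings, filters, rules and cell sets gave 98 to 182 higher and 91 to 176 lower genes, and fits without 1 mouse 98 to 132 and 96 to 119. Of the named genes, 1 reversed: Dmkn stood at -0.08646 with cycling cells limited to those with basal keratins. Of 82 named genes, 21 kept their direction but lost their call without the block and 16 with DESeq2. Between ages, genes higher and lower in old mice numbered 0 and 0 without a filter on low counts and 0 and 1 with DESeq2, and 0 to 3 and 1 to 2 without 1 mouse. Without mouse 4 no gene was higher in old mice, without mouse 2 there was 1, and without mouse 5 there were 2 lower. The share of cycling cells differed between ages by -2.385 to 0.379 points without 1 mouse, with 0.379 when mouse 1 was left out. The basal keratin difference was 36.1 to 42.4 points without 1 mouse, where 5 mice cannot go below an exact p of 0.0625. The ESCC difference was -3.387 points at 300 UMIs, 0.2851 at 1000 UMIs, 0.6205 without thinning and -4.221 to -0.2712 without 1 mouse. Without ESCC mouse 1 it was -4.221 (exact permutation test, p = 0.03571, the smallest that 2 against 6 mice can give). The EoE difference was -2.233 points at 300 UMIs, -17.9 at 1000 UMIs (12, 1 and 10 cells of 3 EoE mice), -12.7 without thinning and -10 to -7.78 without 1 mouse. The cause of these shifts was not tested. Of the replication and histone genes, nearly all missed the filter on low counts, so no difference could be tested for them at these counts.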

Other observations

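Small nucleolar RNA host genes and the genes of the mitochondrial genome were looked at after their values had been seen. Of 16 host genes 5 were tested, and 3 were lower in cycling cells (median log2 difference -0.68), Gas5 and Zfas1 among them. Of 13 mitochondrial genes 7 were tested, and 4 were lower (median -0.20). With DESeq2 1 of the host genes and 2 of the mitochondrial genes were lower, and without the mouse as a block 3 and 0.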
